A study of Sus scrofa with 12 samples.

Results

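CDC45, AVIL, SPAG17, SLC6A4, TAS1R1, ADAMTS18, LAMC3 and MYOC are 8 unrelated genes that had stood out between pig breeds in back fat, and their levels are described here library by library. They were picked by name from 24358 genes in the table, each matched to 1 pig Ensembl ID through its symbol, and all 8 were among the 15425 genes with enough counts to be tested. The RNA was from subcutaneous fat of the mid-back of Guangdong small-eared pigs (GS), a native Chinese breed, and of Yorkshire pigs (YK), a commercial breed. The pigs were 9 d or 80 d old, all entered as wild type, and each breed and age has 3 libraries, 12 in all, written YK_9d, GS_9d, YK_80d and GS_80d. The labels enter adipocyte as the cell type, but the source was whole fat tissue, and fewer cells of a type and less RNA per cell cannot be told apart in it. No label says that replicates are separate animals, so a p-value here measures no more than sample-to-sample spread, part or all of which may be technical.

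The 8 genes do different jobs. CDC45 is part of the helicase that opens DNA at replication forks, AVIL (advillin) severs and bundles actin and is known from sensory neurons, and SPAG17 is a protein of the central pair of microtubules in motile cilia. SLC6A4 carries serotonin back into cells and TAS1R1 pairs with TAS1R3 to form the receptor for umami taste. ADAMTS18 is a secreted metalloprotease, LAMC3 is the gamma 3 chain of laminins in basement membranes, and MYOC (myocilin) is a secreted glycoprotein of the olfactomedin family known from the eye.

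The genes were chosen because of their breed differences at 9 d and 80 d in these same libraries. Their breed differences are therefore given as values with a standard error (SE) and no p-value. Levels are CPM, counts brought to the same library total and scaled with TMM factors, and they are not divided by transcript length, so they serve to compare libraries and not genes. On average 5 of the 8 genes were higher in GS at both ages (AVIL, SPAG17, TAS1R1, ADAMTS18 and MYOC) and 3 were lower (CDC45, SLC6A4 and LAMC3). At 9 d the GS and YK libraries did not overlap for any of the 8, where 18.5% of all genes tested had groups that did not overlap. At 80 d they did not overlap for 5 of the 8, against 31.4% of all genes, and they overlapped for AVIL, SLC6A4 and MYOC. Groups that stayed apart at both ages in the same direction were found for 6.95% of all genes, 3.77% with GS higher and 3.18% with GS lower. An edgeR adjusted p under 0.05 at both ages and in the same direction was reached by 84 genes, 0.545% of those tested, and by 5 of the 8, a count that the choice of genes fixed. These 84 made up 53.5% of the 157 genes past that threshold at 9 d and 8.90% of the 944 past it at 80 d. As a label, marking breed at both ages goes against the data for MYOC, whose groups overlapped at 80 d with a 1.71-fold difference.

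**Figure D1:**
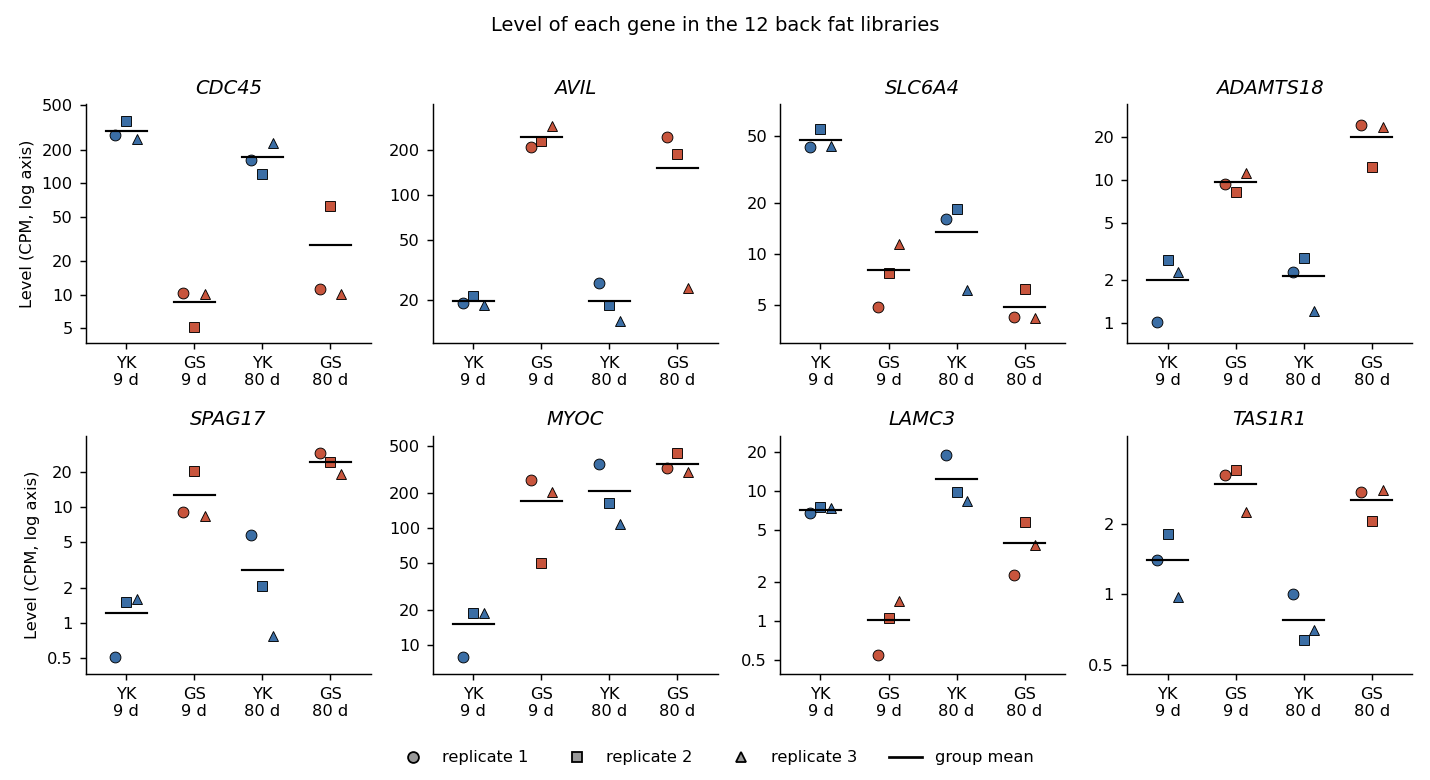
Level of each gene in CPM (log axis) in each library, with YK in blue, GS in red, 1 symbol per replicate number and a black line at the group mean. The GS_80d library of AVIL at 24.3 CPM lies among the YK libraries, the GS_80d library of CDC45 at 63.1 CPM lies between the breeds, and the 3 YK_9d libraries of MYOC at 7.89 to 18.8 CPM lie below all others.

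The deposited totals ran from 45435480 to 60993349 units per library, and 1 sequenced fragment adds about 3.77 units, which makes about 12051851 to 16178607 fragments. Adipocyte genes (ADIPOQ, PLIN1, LEP, FABP4, LPL and CIDEC) summed to 10100 to 30370 CPM in the libraries, so the defining genes of the labelled tissue were high in all of them. At 80 d the adipocyte sums did not overlap between the breeds, with 11140 to 16350 CPM in YK_80d and 19910 to 22130 in GS_80d. At 9 d the sums overlapped, but CIDEC and PLIN1 in the list were higher in GS without overlap. CIDEC stood at 148 to 268 CPM in YK_9d and 493 to 1124 in GS_9d. PLIN1 stood at 594 to 1234.7 CPM in YK_9d and 1235.1 to 2077 in GS_9d. ADIPOQ, LEP, FABP4 and LPL overlapped between the breeds at 9 d. Skeletal muscle transcripts were uneven, with 2108 CPM in YK_9d replicate 1, 10160 in GS_9d replicate 3 and 12160 in YK_80d replicate 3, against at most 82.3 elsewhere. KRT71, a keratin of the hair follicle, was seen in YK_9d only, at 1.12, 7.61 and 13.7 CPM in replicates 1, 2 and 3. So was DSG3, another gene of the keratinocyte and hair follicle list, at 0.413, 1.29 and 9.28 CPM in those replicates. The whole keratinocyte and hair follicle list (5 of 8 genes, mostly DSP, with KRT1 at 0 throughout) did not set YK_9d apart, with 79 to 93.6 CPM there, 51.4 to 81.2 in GS_9d, 39.1 to 59.5 in YK_80d and 52.8 to 66.0 in GS_80d. T and NK cell genes summed to 452 and 664 CPM in YK_80d replicates 2 and 3, against at most 135 elsewhere. Of 15 marker lists for cell types that back fat can hold, 3 had breeds that did not overlap at both ages in the same direction. All 3 sums were lower in GS. The smooth muscle list (6 of 6 genes) stood at 712 to 1089 CPM in YK_9d and 186 to 614 in GS_9d, and at 817 to 1091 in YK_80d and 362 to 521 in GS_80d. The simple epithelium list (5 of 6 genes) stood at 53.8 to 203 and 12.2 to 31.2 CPM at 9 d, and at 54.7 to 550.5 and 7.99 to 13.1 at 80 d. CLDN4 made up most of its YK sums, at 46.2 to 150 CPM in YK_9d and 43.0 to 527 in YK_80d. In GS_9d and GS_80d CLDN4 stood at 2.10 to 13.7 and 0.907 to 2.20 CPM. CDH1 was also lower in GS at both ages without overlap, while EPCAM, KRT8 and KRT18 overlapped between the breeds at both ages. The mast cell list (5 of 7 genes) stood at 75.4 to 109 and 23.2 to 41.2 CPM at 9 d. At 80 d it stood at 70.4 to 122 and 25.6 to 43.4. KIT made up most of its YK sums, at 61.97 to 77.5 CPM in YK_9d and 43.6 to 102 in YK_80d. In GS_9d and GS_80d KIT stood at 6.67 to 9.47 and 5.42 to 10.04 CPM. FCER1A was higher in GS at 9 d without overlap, at 0 to 1.155 CPM in YK_9d and 2.97 to 6.76 in GS_9d. MS4A2 was higher in GS at 80 d without overlap, at 1.925 to 4.003 CPM in YK_80d and 5.62 to 8.36 in GS_80d. FCER1A at 80 d, MS4A2 at 9 d, and HDC and GATA2 at both ages overlapped. The part of these lists, and of the adipocyte genes at either age, in the breed differences of the 8 genes was not tested.

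CDC45 had the widest breed difference of the 8 genes at 9 d, with YK higher. In YK_9d replicates 1, 2 and 3 it stood at 269.5, 364 and 251 CPM, and in GS_9d at 10.4, 5.19 and 10.1 CPM. In YK_80d it stood at 162, 120.1 and 231 CPM, and in GS_80d at 11.3, 63.1 and 10.3 CPM. GS_80d replicate 2 stood well above the other GS libraries, and no GS library reached a YK library of its age. The fitted log2 difference, GS minus YK, was -5.11 ± 0.72 (SE, n = 3 libraries per group), or 34.5-fold, at 9 d. At 80 d it was -2.60 ± 0.64, or 6.06-fold, and it was -3.98 ± 0.41 without GS_80d replicate 2. The lowest YK library was 24.2 times the highest GS library at 9 d and 1.90 times at 80 d.

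At 9 d the breed difference of CDC45 was wider than that of the other tested genes of the replication fork. Of the 25 other genes in that list (such as the MCM and GINS subunits of the same helicase, the origin recognition complex and PCNA) 22 were tested. Against 1.02% of all genes at 9 d, edgeR called 0 of the 22, with 1 at an unadjusted p under 0.05 and 0 called by DESeq2 or limma-voom. MCM7 and RPA1, the most highly expressed of them, differed by 0.12 ± 0.17 (adjusted p = 0.843) and 0.29 ± 0.22 (adjusted p = 0.626). All 22 had smaller differences than CDC45 at 9 d, with a range of -1.15 to 1.90 and a median of -0.11, where the median of all genes was 0.01. At 80 d, where edgeR called 6.12% of all genes, 1 of the 22 was lower in GS, MCM6 (-1.58 ± 0.37, adjusted p = 0.0302), and the list's median was -0.69 against -0.02 for all genes. DESeq2 called 5 of the 22 and limma-voom 0, with 9 at an unadjusted p under 0.05, and 21 of the 22 had smaller differences than CDC45. The exception was CDT1, which differed by -4.16 ± 1.33 (edgeR adjusted p = 0.0832), with a mean of 0.144 CPM in GS_80d. MCM6 stood at 14.8, 36.5 and 37.9 CPM in YK_80d replicates 1, 2 and 3, the last 2 being the libraries with the most T cell transcripts. Without those 2 libraries it differed by -0.57 (adjusted p = 0.526), and it lost the call in 5 of 12 omissions of a single library (highest adjusted p 0.126) and with limma-voom (0.0504).

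The proliferating cell list (7 of 8 genes, among them TOP2A, CDK1 and CCNB1) summed to 32.6 to 45.1 CPM in YK_9d and 24.9 to 52.6 in GS_9d, ranges that overlap. At 80 d it summed to 14.3, 98.03 and 92.99 CPM in YK_80d replicates 1, 2 and 3, and to 13.1 to 19.9 CPM in GS_80d. TOP2A, which untangles DNA in dividing cells, stood at 2.85, 37.4 and 35.9 CPM in YK_80d replicates 1, 2 and 3. The part of dividing cells in the level of CDC45 was not tested. Over the 12 libraries the log2 levels most like that of CDC45 among 9582 genes compared were those of SCO2, WNT5B and KIT (Pearson r = 0.925, 0.922 and 0.919). KIT, a growth factor receptor of mast cells and pigment cells, is also in the mast cell list given above and made up most of its YK sums. Such coefficients describe libraries that share breed, age and depth, and carry no p.

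AVIL had 2 separate levels in these libraries. It stood at 19.2, 21.4 and 18.5 CPM in YK_9d replicates 1, 2 and 3, and at 209, 229 and 285.5 CPM in GS_9d. It stood at 26.0, 18.8 and 14.6 CPM in YK_80d, and at 241, 186 and 24.3 CPM in GS_80d. All YK libraries and GS_80d replicate 3 lay between 14.6 and 26.0 CPM, and the other 5 GS libraries lay between 186 and 285.5 CPM. The log2 difference was 3.62 ± 0.63 (12.3-fold) at 9 d and 2.93 ± 0.61 (7.60-fold) at 80 d, the second with overlapping groups. Without GS_80d replicate 3 it was 3.43 at 80 d. That library's within-group spread made the SD of log2 AVIL in GS_80d 1.81, larger than for 92.9% of genes tested, where the median gene had an SD of 0.26.

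None of the other tested genes of the gelsolin and villin family had a difference as wide. Of 7 others 6 were tested, and edgeR called 0 at either age, as did DESeq2 and limma-voom, with 2 at an unadjusted p under 0.05 at each age. GSN, gelsolin itself, differed by -0.08 ± 0.25 at 9 d (adjusted p = 0.935) and -0.30 ± 0.25 at 80 d (adjusted p = 0.513). FLII differed by -0.30 ± 0.24 (adjusted p = 0.643) and -0.59 ± 0.24 (adjusted p = 0.160). AVIL is known from sensory neurons, and the neuron list (6 of 7 genes) summed to 2.96 to 3.40 CPM in YK_9d, 0.838 to 2.45 in GS_9d, 2.83 to 5.15 in YK_80d and 4.48 to 6.04 in GS_80d. In GS_80d replicates 1, 2 and 3 the list stood at 6.04, 4.48 and 5.86 CPM, AVIL being high in the first pair and low in the last. The part of neurons in the level of AVIL was not tested. The log2 levels most like that of AVIL were those of FBXL4, UBQLN2 and NAP1L3 (r = 0.899, 0.895 and 0.890 over 12 libraries).

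SPAG17 was higher in GS at both ages, with no overlap. It stood at 0.505, 1.52 and 1.60 CPM in YK_9d replicates 1, 2 and 3, and at 9.11, 20.4 and 8.38 CPM in GS_9d. It stood at 5.71, 2.10 and 0.766 CPM in YK_80d, and at 29.3, 24.6 and 19.1 CPM in GS_80d. YK_80d replicate 1 was the highest YK library, and GS_9d replicate 2 the highest of its group. The log2 difference was 3.39 ± 0.69 (10.5-fold) at 9 d and 3.09 ± 0.68 (8.52-fold) at 80 d. At 80 d it was 4.06 ± 0.68 without YK_80d replicate 1 and 2.64 without YK_80d replicate 3. Without YK_80d replicates 2 and 3, which leaves 1 library in that group, it was 2.09. The lowest library of SPAG17 rests on about 9 fragments, for which counting error alone is 33.8%.

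No other gene of motile cilia passed the test. Of 21 others in the list of the central pair and the motile cilium 15 were tested, and edgeR, DESeq2 and limma-voom called 0 at either age, with 0 and 1 at an unadjusted p under 0.05 at 9 d and 80 d. CCDC39, which sets the spacing of the arms on the ciliary axis, differed by 0.23 ± 0.76 at 9 d (adjusted p = 0.943) and 1.56 ± 0.78 at 80 d (adjusted p = 0.248). CFAP46, another protein of the central pair, differed by -0.30 ± 0.53 (adjusted p = 0.878) and 1.14 ± 0.54 (adjusted p = 0.218). The list's median was -0.41 at 9 d and 0.58 at 80 d. Several of its tested genes were at 0 in some libraries, where a difference could have been missed. The ciliated epithelium list summed to at most 2.95 CPM in any library, and FOXJ1, the master regulator of motile cilia, was at 0 in every 9 d library and in every GS_80d library. Schwann cell transcripts were highest in the same 2 libraries that led their groups for SPAG17, with 281 CPM in GS_9d replicate 2 and 388 CPM in YK_80d replicate 1, against at most 128 elsewhere. Their part in the level of SPAG17 was not tested. In GS_80d, where SPAG17 was highest, the list stood at 72.9 to 128 CPM. The log2 levels most like that of SPAG17 were those of MTMR3, CIDEC and CCDC69 (r = 0.970, 0.969 and 0.962), CIDEC being a lipid droplet protein of adipocytes.

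SLC6A4 was higher in YK and fell with age. It stood at 42.8, 54.9 and 43.8 CPM in YK_9d replicates 1, 2 and 3, and at 4.85, 7.68 and 11.4 CPM in GS_9d. It stood at 16.1, 18.5 and 6.06 CPM in YK_80d, and at 4.23, 6.19 and 4.15 CPM in GS_80d. The breeds lay apart at 9 d, while at 80 d YK_80d replicate 3 lay just under GS_80d replicate 2. Fitted on the log2 scale, the difference was -2.56 ± 0.42 (5.91-fold) at 9 d and -1.48 ± 0.40 (2.79-fold) at 80 d, and -1.84 at 80 d without YK_80d replicate 3.

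No other gene of serotonin handling passed the test. In that list edgeR, DESeq2 and limma-voom called 0 of the 10 tested (of 19 others in the list) at either age, with 0 at 9 d and 1 at 80 d at an unadjusted p under 0.05. SLC18A2, which loads serotonin and other amines into vesicles, differed by -0.22 ± 0.24 at 9 d (adjusted p = 0.764) and 0.07 ± 0.24 at 80 d (adjusted p = 0.894). MAOB, which breaks down amines, differed by 1.03 ± 0.79 (adjusted p = 0.624) and -1.81 ± 0.82 (adjusted p = 0.203). The rest of the tested genes averaged 0.127 to 1.37 CPM, with SEs of up to 2.14, so differences in them could have been missed. Platelets carry the serotonin transporter, and the platelet list (4 of 6 genes, without PF4 and ITGA2B) summed to 53.4 to 111 CPM in YK_9d and 32.1 to 38.9 in GS_9d, and to 23.3 to 43.0 and 24.6 to 31.0 at 80 d. ITGB3, an integrin that other cells carry too, made up 48.8 to 104 CPM of the YK_9d sums, and PPBP, a platelet chemokine, was at 0 in all YK_9d libraries. The part of platelets and mast cells in the level of SLC6A4 was not tested. The log2 levels most like that of SLC6A4 were those of SPECC1, CA4 and TBC1D13 (r = 0.942, 0.937 and 0.936).

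TAS1R1 was higher in GS at both ages. It rests on about 9 to 49 fragments per library, for which counting error alone is 14.3% to 33.3%. It stood at 1.41, 1.81 and 0.973 CPM in YK_9d replicates 1, 2 and 3, and at 3.21, 3.37 and 2.24 CPM in GS_9d. It stood at 1.001, 0.639 and 0.704 CPM in YK_80d, and at 2.74, 2.06 and 2.77 CPM in GS_80d. The breeds did not overlap at either age, but the gap at 9 d was narrow, the lowest GS library being 1.24 times the highest YK library, against 2.06 times at 80 d. The log2 difference was 1.07 ± 0.47 (2.10-fold) at 9 d and 1.69 ± 0.48 (3.23-fold) at 80 d.

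Neither the partner of TAS1R1 nor the proteins that pass on the taste signal passed the test. Of 11 others in the list 7 were tested, and edgeR, DESeq2 and limma-voom called 0 at either age, with 3 and 1 at an unadjusted p under 0.05. ITPR3, a calcium channel of taste cells and many others, differed by -1.43 ± 0.71 at 9 d (adjusted p = 0.402) and -0.24 ± 0.70 at 80 d (adjusted p = 0.880). TRPM4, a cation channel, differed by -0.93 ± 0.35 (adjusted p = 0.244) and -0.11 ± 0.35 (adjusted p = 0.893). TAS1R3, named after its values were seen because it is the partner, differed by -0.69 ± 0.27 (adjusted p = 0.262) and -0.51 ± 0.27 (adjusted p = 0.275), with group means of 27.5 CPM in YK_9d, 17.1 in GS_9d, 20.9 in YK_80d and 14.6 in GS_80d. Its fitted differences had the opposite sign to those of TAS1R1. The log2 levels most like that of TAS1R1 were those of CAGE1, FBXL4 and ISLR (r = 0.933, 0.899 and 0.897), and FBXL4 was also among those most like AVIL.

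ADAMTS18 was higher in GS at both ages. It stood at 1.02, 2.77 and 2.27 CPM in YK_9d replicates 1, 2 and 3, and at 9.36, 8.30 and 11.3 CPM in GS_9d. It stood at 2.30, 2.88 and 1.22 CPM in YK_80d, and at 24.0, 12.3 and 23.3 CPM in GS_80d. The YK libraries of both ages shared 1 range, and every GS_80d library lay above every GS_9d library. On the log2 scale the breeds differed by 2.25 ± 0.44 (4.77-fold) at 9 d and 3.22 ± 0.45 (9.29-fold) at 80 d. Without YK_9d replicates 2 and 3 the 9 d difference was 3.23.

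Of the other genes of the family, ADAMTS20 had a pattern of the same kind and was called at both ages. Of 23 other ADAMTS and ADAMTS-like genes, all tested, edgeR called 1 higher and 0 lower in GS at 9 d and 3 higher and 0 lower at 80 d, where 0.655% and 3.17% of all genes were called higher and 0.363% and 2.95% lower. ADAMTS20, a protease known in mice for its part in coat pigmentation, stood at 7.49, 5.92 and 5.88 CPM in YK_9d and 23.0, 15.0 and 27.4 CPM in GS_9d. It stood at 5.83, 7.03 and 6.15 CPM in YK_80d and 27.8, 19.5 and 31.3 CPM in GS_80d. It differed by 1.76 ± 0.27 (adjusted p = 0.0214) at 9 d and 2.05 ± 0.28 (adjusted p = 0.00265) at 80 d, with no YK library reaching any GS library. When single libraries were left out in turn, the 80 d call held in 12 of 12 fits (highest adjusted p 0.0164) and the 9 d call in 10 of 12 (highest 0.103). It was lost at 9 d with the 6 libraries of that age alone (adjusted p = 0.0876), after removal of the 3 muscle-bearing libraries (0.0837) and of YK_9d replicates 2 and 3 (0.207). ADAMTS5, a protease that cuts aggrecan, was also higher at 80 d (0.92 ± 0.24, adjusted p = 0.0435). That call held in 4 of the 12 omissions (highest adjusted p 0.1295), and the third gene, ADAMTS2, kept its call in 1 of 12 (highest 0.177). ADAMTS17 was also higher in GS at both ages without overlap, though edgeR called it at neither. It stood at 1.64 to 2.05 CPM in YK_9d and 4.39 to 10.1 in GS_9d. At 80 d it stood at 0.931 to 1.68 in YK_80d and 2.93 to 7.62 in GS_80d. Its 9 d difference was 1.95 ± 0.49 (adjusted p = 0.0776). ADAMTSL4 went the other way without overlap, at 91.6 to 170 CPM in YK_9d and 40.2 to 72.3 in GS_9d. At 80 d ADAMTSL4 stood at 46.4 to 197 in YK_80d and 32.2 to 44.6 in GS_80d. The medians of the 23 genes were -0.17 and 0.03. Most like ADAMTS18 in log2 level were those of ALDH2, FASN and ITGA7 (r = 0.958, 0.952 and 0.952), FASN being fatty acid synthase.

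LAMC3 was higher in YK at both ages. It stood at 6.76, 7.55 and 7.44 CPM in YK_9d replicates 1, 2 and 3, and at 0.541, 1.05 and 1.44 CPM in GS_9d. It stood at 19.2, 9.84 and 8.38 CPM in YK_80d, and at 2.27, 5.80 and 3.88 CPM in GS_80d. The breeds did not overlap, but GS_80d replicate 2 came near the YK_9d libraries. The log2 difference was -2.84 ± 0.48 (7.16-fold) at 9 d and -1.65 ± 0.46 (3.13-fold) at 80 d. The 3 YK_9d libraries were close together, with an SD of 0.09 on the log2 scale, larger than for 3.74% of genes tested, whereas the SD was 0.63 to 0.71 in the other groups. The lowest library of LAMC3 rests on about 8 fragments, with a counting error of 34.9%.

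No other laminin chain passed the test between breeds. Of 11 others 10 were tested, and edgeR called 0 at either age, with 2 and 5 at an unadjusted p under 0.05, while DESeq2 called 1 and 4 and limma-voom 0 and 1. LAMC1, the common gamma chain, differed by 0.40 ± 0.24 at 9 d (adjusted p = 0.492) and 0.57 ± 0.24 at 80 d (adjusted p = 0.171). LAMB1 differed by 0.25 ± 0.24 (adjusted p = 0.720) and -0.39 ± 0.24 (adjusted p = 0.359). LAMA4 was higher in GS without overlap at both ages, as LAMC1 was. LAMA4 stood at 208 to 237 CPM in YK_9d and 402 to 503 in GS_9d, and at 207 to 397 in YK_80d and 471 to 571 in GS_80d. At 80 d the chains ran from -1.34 to 2.80, and 9 of the 10 had smaller differences than LAMC3. The medians of the 10 chains were 0.13 and 0.57, opposite in sign to LAMC3. The log2 levels most like that of LAMC3 were those of TEAD4, SEMA3G and S100A6 (r = 0.911, 0.906 and 0.901).

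MYOC differed between the breeds at 9 d and overlapped at 80 d. It stood at 7.89, 18.8 and 18.8 CPM in YK_9d replicates 1, 2 and 3, and at 255, 49.7 and 201 CPM in GS_9d. It stood at 348.5, 163.5 and 107.5 CPM in YK_80d, and at 326, 435 and 297 CPM in GS_80d. YK_9d stood apart as the low group, and YK_80d replicate 1 lay within the range of GS_80d. The log2 difference was 3.48 ± 0.62 (11.1-fold) at 9 d and 0.77 ± 0.57 (1.71-fold) at 80 d, and 1.37 at 80 d without YK_80d replicate 1. YK_9d replicate 1 and YK_80d replicate 3, the lowest YK libraries of their ages, were those with muscle transcripts, and GS_9d replicate 2 and YK_80d replicate 1 were those with the most Schwann cell transcripts, MYOC being the lowest of its group in the first and the highest in the second. In GS_9d replicate 3, the third muscle-bearing library, MYOC was not the lowest of its group. The part of these tissues in the level of MYOC was not tested.

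No other olfactomedin gene passed the test between breeds. Of 9 others 7 were tested, and edgeR called 0 at either age, with 1 at 9 d and 0 at 80 d at an unadjusted p under 0.05. DESeq2 called 1 at 9 d and 0 at 80 d, and limma-voom 0. OLFML2A differed by -1.04 ± 0.26 at 9 d (adjusted p = 0.0763) and OLFML2B by 0.32 ± 0.41 (adjusted p = 0.813). At 80 d they differed by -0.21 ± 0.25 (adjusted p = 0.672) and 0.53 ± 0.41 (adjusted p = 0.471). Most like MYOC in log2 level were those of TRIM25, BRWD1 and ZFC3H1 (r = 0.931, 0.907 and 0.899).

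**Figure D2:**
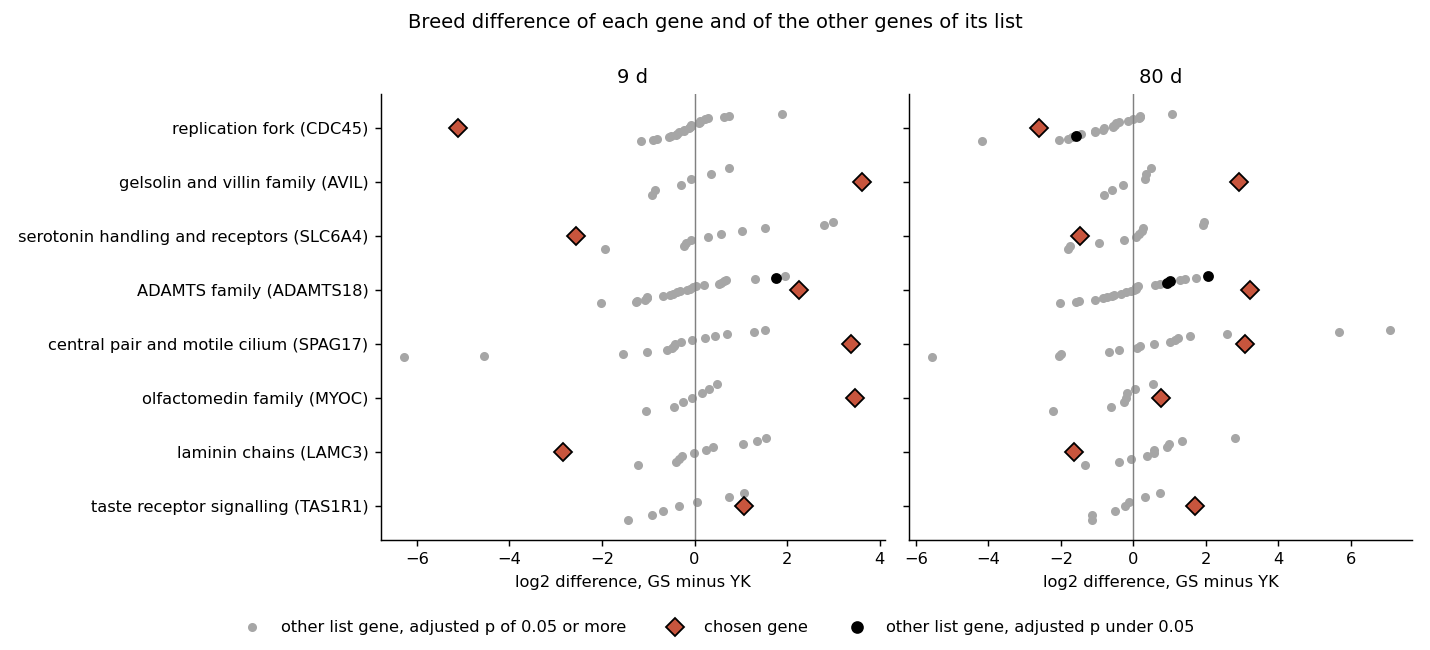
Fitted log2 difference between GS and YK at 9 d (left) and 80 d (right) for each of the 8 genes (red diamonds) and the other tested genes of its family or pathway list (circles, black where the adjusted p was under 0.05). At 9 d each of the 8 but TAS1R1 lies outside the signed range of its list, from -5.11 for CDC45 to 3.62 for AVIL. Without regard to sign, SPAG17 was larger than 13 of 15 genes at 9 d, its list running from -6.28 to 1.52. SLC6A4 was larger than 8 of 10, its list running from -1.93 to 2.995.

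Across all 8 lists 100 of 126 other genes were tested. At 9 d edgeR called 1% of them against 1.02% of all genes, and at 80 d 4% against 6.12%. The lists as a whole thus stood near the background at both ages.

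The size of the breed difference changed with age by different amounts. It was smaller at 80 d for 6 of the 8 genes and larger for ADAMTS18 and TAS1R1. The median size over the 8 was 3.11 log2 units at 9 d and 2.14 at 80 d, against 0.36 and 0.48 for all genes tested. MYOC changed by -2.71 ± 0.82 log2 units from 9 d to 80 d, and CDC45 by 2.51 ± 0.86, both toward 0. For CDC45 the change was 1.13 ± 0.46 without GS_80d replicate 2. LAMC3 changed by 1.196 ± 0.63 and SLC6A4 by 1.08 ± 0.56, also toward 0, and ADAMTS18 by 0.96 ± 0.59 and TAS1R1 by 0.62 ± 0.66, away from 0. AVIL changed by -0.69 ± 0.81 and SPAG17 by -0.30 ± 0.89, less than 1 SE. The change of SPAG17 had no steady sign. It was -1.30 without YK_80d replicates 2 and 3 and -1.55 without YK_9d replicates 2 and 3, each leaving 1 library in the group. With single libraries left out it ran from -0.75 without YK_80d replicate 3 to 0.67 without YK_80d replicate 1. It was also positive without YK_9d replicate 1 and without GS_9d replicate 2. Without YK_80d replicate 1 the difference was thus smaller at 80 d for 5 of the 8 genes. Without YK_9d replicates 2 and 3 the change of ADAMTS18 was -0.013 ± 0.58. No test of these changes was made, since both parts of each had chosen the genes.

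**Figure D3:**
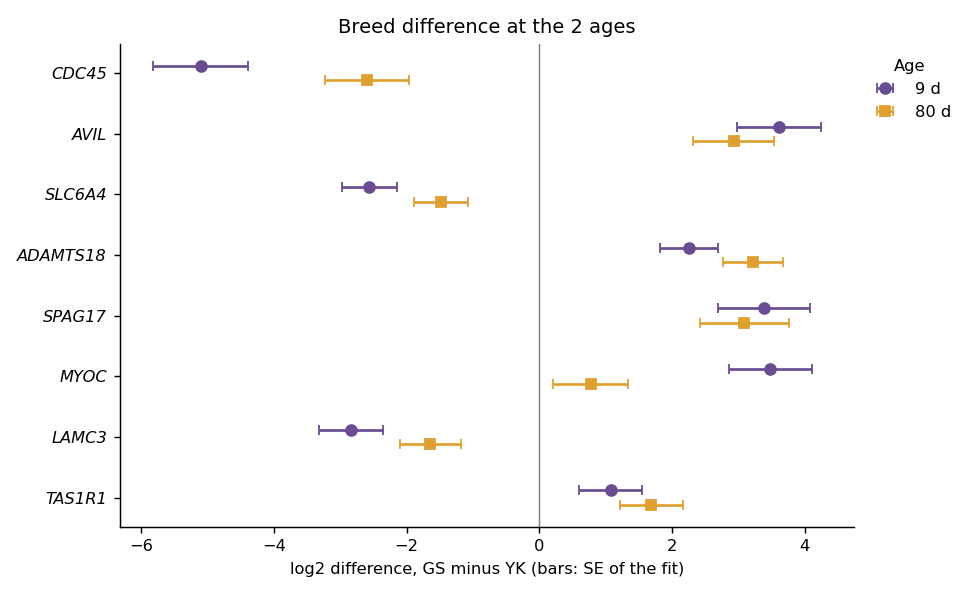
Fitted log2 difference, GS minus YK, of each gene at 9 d (purple circles) and 80 d (orange squares), with bars of 1 SE. The ages lie at 3.39 and 3.09 for SPAG17, and furthest apart for MYOC at 3.48 and 0.77. The 80 d value of SPAG17 is 4.06 without YK_80d replicate 1 and 2.64 without YK_80d replicate 3.

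The spread within groups also differed between ages. In GS_80d, where the median gene had the lowest SD of the 4 groups (0.26 log2 units, against 0.36 to 0.44), AVIL and CDC45 had SDs of 1.81 and 1.47, the second larger than for 91.5% of genes. In each gene 1 library stood apart, replicate 3 for AVIL and replicate 2 for CDC45. In YK_9d the same genes had SDs of 0.11 and 0.29. SPAG17 had its widest spread in YK_80d, at 1.44, and MYOC in GS_9d, at 1.28. SLC6A4 had an SD of 0.20 in YK_9d and 0.88 in YK_80d. TAS1R1, with the smallest differences of the 8 at 9 d, kept SDs of 0.24 to 0.45 in all 4 groups.

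Age offered a contrast on which the genes had not been chosen, but its p-values are not wholly free of that choice. The age difference averaged over the breeds is uncorrelated with both breed differences in a balanced design whose groups have equal spread. The SD of log2 MYOC ran from 0.29 in GS_80d to 1.28 in GS_9d. The age test also uses the same estimate of spread as the breed differences that chose the genes. For this age difference edgeR called 974 genes, 6.31% of those tested, 3.39% higher and 2.92% lower at 80 d. Of the 8 genes 3 passed. MYOC rose from a mean of 91.9 CPM at 9 d to 279.5 at 80 d over both breeds. Its fitted log2 difference, the average of those of the 2 breeds, was 2.42 ± 0.42 (adjusted p = 0.00894). MYOC kept the call in 12 of 12 omissions of a single library (highest adjusted p 0.0246). For MYOC, LAMC3 and SLC6A4 the ratio of mean CPM is not the fitted fold, since the higher breed weighs more in the mean. LAMC3 rose by 1.38 ± 0.32 (adjusted p = 0.0260), with means of 4.13 CPM at 9 d and 8.22 at 80 d. SLC6A4 fell by 1.26 ± 0.28 on the log2 scale (adjusted p = 0.0224), with means of 27.6 CPM at 9 d and 9.20 at 80 d. LAMC3 kept its call in 6 of the 12 fits, with adjusted p of 0.0542, 0.0504, 0.0554, 0.0510, 0.0650 and 0.0517 without YK_9d replicate 1, YK_9d replicate 3, GS_9d replicate 2, YK_80d replicate 1, GS_80d replicate 2 and GS_80d replicate 3, and it missed the threshold with limma-voom (adjusted p = 0.0674). SLC6A4 kept its call in 8 of 12, with adjusted p of 0.0555, 0.0620, 0.0674 and 0.0657 without YK_9d replicate 2, GS_9d replicate 3, GS_80d replicate 1 and GS_80d replicate 3.

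Within the breeds the age differences were uneven. The ages did not overlap in YK for CDC45, SLC6A4, MYOC and LAMC3, 4 of 8 against 15.8% of all genes, and in GS for ADAMTS18, MYOC and LAMC3, 3 of 8 against 33.7%. MYOC differed by 3.77 ± 0.63 in YK and 1.06 ± 0.57 in GS, and LAMC3 by 0.78 ± 0.45 in YK and 1.98 ± 0.47 in GS. SLC6A4 differed by -1.80 ± 0.40 in YK and -0.72 ± 0.40 in GS. These within-breed values share libraries with the breed differences and were not tested. The other 5 genes did not pass the averaged test. SPAG17 differed by 1.10 ± 0.45 (adjusted p = 0.178), ADAMTS18 by 0.56 ± 0.30 (adjusted p = 0.295), TAS1R1 by -0.53 ± 0.33 (adjusted p = 0.381) and AVIL by -0.34 ± 0.40 (adjusted p = 0.677). CDC45 differed by 0.47 ± 0.43 (adjusted p = 0.568), made of -0.79 ± 0.60 in YK and 1.72 ± 0.62 in GS, and its sign turned without GS_80d replicate 2 (-0.21 ± 0.23, adjusted p = 0.694).

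**Figure D4:**
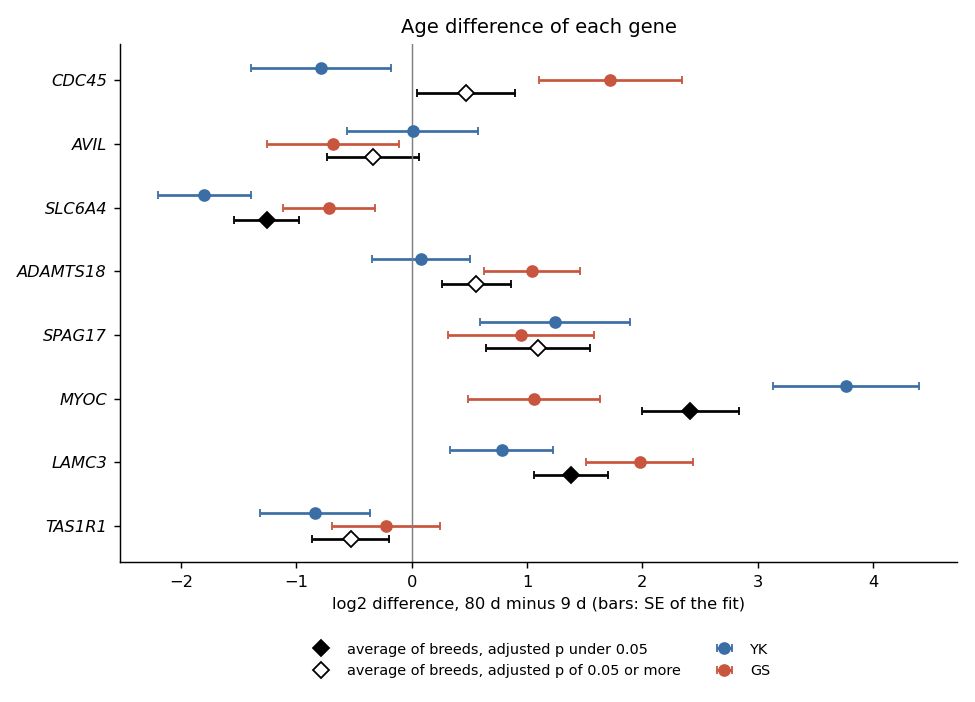
Fitted log2 difference, 80 d minus 9 d, of each gene in YK (blue), in GS (red) and averaged over the breeds (diamonds, filled where the adjusted p was under 0.05), with bars of 1 SE. The filled diamonds are SLC6A4 at -1.26, MYOC at 2.42 and LAMC3 at 1.38.

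Relatives of these genes also changed with age. Of the 100 list genes tested, edgeR called 3 higher and 4 lower at 80 d, 7% against 6.31% of all genes, which is near the background. ADAMTS1, an inducible protease, rose by 1.78 ± 0.24 (adjusted p = 0.00260), and PLCB2, a phospholipase of taste cells and of blood cells, by 2.04 ± 0.31 (adjusted p = 0.00432). Both kept the call in 12 of 12 omissions. LAMC1 fell by 0.80 ± 0.17 (adjusted p = 0.0171) and LAMB1 by 0.80 ± 0.17 (adjusted p = 0.0185), opposite to LAMC3. Both kept the call in 10 of 12 fits (adjusted p up to 0.0522 and 0.0555). OLFM2, a secreted relative of MYOC, fell by 1.04 ± 0.23 (adjusted p = 0.0228) and kept the call in 7 of 12 (up to 0.0698), opposite to MYOC. ADAMTS7 fell by 1.12 ± 0.28 (adjusted p = 0.0318) and kept the call in 2 of 12 (up to 0.0969), and ADAMTS4 kept its call in 1 of 12 (up to 0.114). Among the lists without a call for age, MCM7 differed by -0.28 ± 0.12 (adjusted p = 0.210), GSN by 0.23 ± 0.18 (0.481), SLC18A2 by -0.39 ± 0.17 (adjusted p = 0.192) and CCDC39 by 0.45 ± 0.54 (adjusted p = 0.679).

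Of the genes next to the 8 in the genome 1 passed the test between breeds. The nearest 2 on each side that the count table also names were taken from the RefSeq gene table of the assembly Sscrofa11.1, 32 in all, of which 26 were tested. At 9 d edgeR called 0 of the 26, with 5 at an unadjusted p under 0.05, 3 called by DESeq2 and 0 by limma-voom. At 80 d it called 1 (3.85%, against 6.12% of all genes), with 8 at an unadjusted p under 0.05, 4 called by DESeq2 and 1 by limma-voom. That gene was NUDT7, a peroxisomal hydrolase beside ADAMTS18, which was higher in GS by 1.01 ± 0.24 (adjusted p = 0.0317) and by 0.81 ± 0.24 at 9 d (adjusted p = 0.139). Its 80 d call held in 6 of 12 omissions (highest adjusted p 0.115).

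The neighbours of CDC45, AVIL, MYOC and SPAG17 differed by less than these genes did at 9 d. UFD1 and MRPL40, on one side of CDC45, differed by -0.09 ± 0.23 and 0.13 ± 0.20 at 9 d (adjusted p = 0.912 and 0.846), and TBX1, on the other, by -1.18 ± 0.85 (adjusted p = 0.595). TSFM, beside AVIL, differed by 0.08 ± 0.27 at 9 d (adjusted p = 0.943), and CTDSP2, on the other side of AVIL, by 0.95 ± 0.34 at 9 d (adjusted p = 0.216) and 1.13 ± 0.34 at 80 d (adjusted p = 0.0710), with the sign of AVIL. PRRC2C and VAMP4, which flank MYOC, differed by 0.17 ± 0.27 and 0.51 ± 0.23 at 9 d (adjusted p = 0.855 and 0.326). WDR3 and WARS2, which flank SPAG17, differed by 0.09 ± 0.20 and -0.26 ± 0.22 at 9 d (adjusted p = 0.902 and 0.673). NSRP1 and BLMH flank SLC6A4 and differed by -0.32 ± 0.27 and -0.09 ± 0.22 (adjusted p = 0.664 and 0.911). AIF1L and NUP214, beside LAMC3, differed by -0.16 ± 0.34 and 0.02 ± 0.19 at 9 d (adjusted p = 0.898 and 0.981). NOL9 and ZBTB48, beside TAS1R1, differed by -0.60 ± 0.36 and -0.49 ± 0.35 (adjusted p = 0.497 and 0.594), opposite in sign to TAS1R1. GDAP2, the second gene on one side of SPAG17, differed by 0.92 ± 0.24 at 9 d (adjusted p = 0.0940), and VAT1L, near ADAMTS18, by 3.25 ± 1.15 at 9 d (adjusted p = 0.221) and -0.70 ± 1.05 at 80 d (adjusted p = 0.745).

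**Figure D5:**
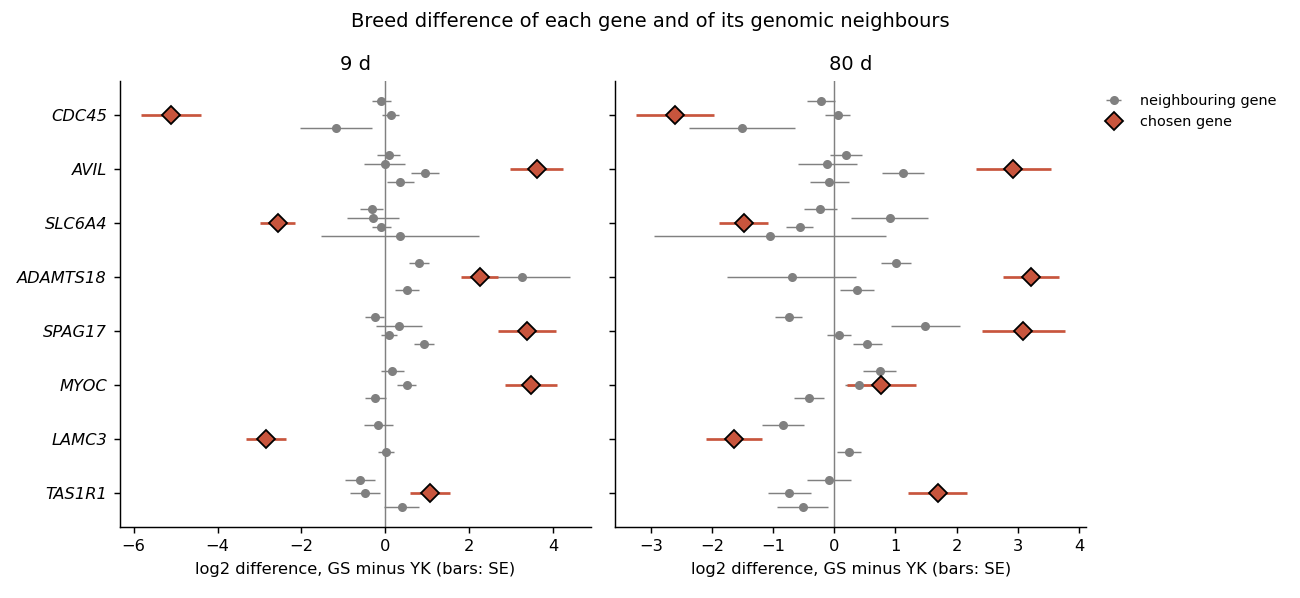
Fitted log2 difference, GS minus YK, of each gene (red diamonds) and of its tested genomic neighbours (grey circles, up to 2 on each side) at 9 d and 80 d, with bars of 1 SE. The neighbour furthest from 0 at 9 d is VAT1L, beside ADAMTS18, at 3.25 with an SE of 1.15.

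The 8 genes also ran together to different degrees over the libraries. The closest pair was ADAMTS18 and SPAG17 (r = 0.930 over 12 libraries), and the loosest pairs were MYOC with LAMC3 (r = -0.179) and MYOC with TAS1R1 (r = 0.205). These coefficients are descriptions, since all 8 were chosen for breed and share the same libraries.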

How the data were processed

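RNA from back fat of 2 pig breeds at 2 ages was sequenced by the authors, per the labels' protocols with TRIzol extraction and a stranded KAPA kit. Values are expected counts by gene, which the authors deposited as whole numbers, with totals that differ between libraries. Aligner, counter, annotation and strand setting: not given in the sources used here. Per the submitters' processing notes the build was mm10, of mouse, while all IDs are pig IDs, so no coordinates are printed. About 3.77 units are worth 1 fragment, as the steps between small values show. Overlapping or antisense genes may share reads.

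Groups came from the sample titles. Genes kept by filterByExpr were scaled with TMM (factors 0.888 to 1.1) and fitted on all 12 libraries with 4 groups as terms by edgeR 4.0.16 quasi-likelihood with robust dispersions (R 4.3.3, 8 residual degrees of freedom). Tests were two-sided, Benjamini-Hochberg adjusted over 15425 genes, with a threshold of 0.05. SE is the log2 difference divided by the square root of F. SDs and likeness use log2 CPM after adding 0.5 units. DESeq2 1.42.0, limma-voom (limma 3.58.1) and other settings were alternatives. The procedure was tested on simulated data.

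The 8 genes and all lists were chosen with earlier results of these data known. Named besides the 8 were the 3 genes most like each (a mean of at least 2 log2 CPM), 2 neighbours a side, and from each list up to 2 called genes with the smallest adjusted p or, with none called, the 2 highest. ADAMTS2, ADAMTS4, ADAMTS17, ADAMTSL4, CDT1, LAMA4 and TAS1R3 were added after their values were seen. Marker lists were summed as CPM.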

Additional observations from a re-analysis of the deposited data

How the results depend on the processing

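The breed differences of the 8 genes kept their sign under every alternative run, 7 kinds of setting planned besides 12 omissions of a single library and 3 omissions of library sets chosen after seeing the data. The counts over all genes were less steady. With DESeq2 the genes past the threshold were 891 for breed at 9 d, 2221 for breed at 80 d and 1931 for age, in place of 157, 944 and 974. With the 6 libraries of 9 d alone 29 passed. Leaving out 1 library gave 5 to 284 genes for breed at 9 d, 255 to 1195 at 80 d and 491 to 983 for age. Without the 3 libraries with muscle transcripts the counts were 39, 290 and 466. Without YK_9d replicates 2 and 3, which had the most KRT71, they were 11 for breed at 9 d and 390 for age, and without YK_80d replicates 2 and 3 242 for breed at 80 d and 604 for age, each fit assuming that the lone library left varies like the other groups. The cause was not tested.

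No pairing of the samples by replicate number was seen, though 3 libraries per group cannot show a weak one. Deviations of same-numbered libraries correlated with r of -0.20 to 0.20 over 18 pairs, and those of other pairs with -0.30 to 0.30. With the replicate number as a block, 49 genes passed for breed at 9 d in place of 157, and the age calls of the 8 genes did not change. ADAMTS5 and ADAMTS2 for breed at 80 d and ADAMTS7 for age then missed the threshold (adjusted p = 0.0508, 0.0729 and 0.0516).

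The age calls of MYOC, LAMC3 and SLC6A4 were each lost without YK_9d replicates 2 and 3 (adjusted p = 0.0544, 0.142 and 0.116), and that of SLC6A4 also without the libraries with muscle (0.0532) or T cell transcripts (0.0567). Without the latter SPAG17 passed (1.60, adjusted p = 0.0468). The age difference of CDC45 ran from -0.21 without GS_80d replicate 2 to 0.68 without GS_80d replicate 3. Depth limits TAS1R1, SPAG17 and LAMC3, whose lowest libraries hold 8 to 9 fragments.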
